A study of Mus musculus with 2 samples.

Results

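The constant region genes of the T cell receptor were followed in single-cell RNA sequencing of MC38 tumours. The 7 genes, out of 31053 features in the files, were Trac (alpha chain), Trbc1 and Trbc2 (beta chain), Trdc (delta chain) and Tcrg-C1, Tcrg-C2 and Tcrg-C4 (gamma chain), chosen by symbol. MC38 is a mouse colon carcinoma line, and tumours had grown for 5 days in the flank of C57BL/6 mice, to a mean of 100 mm3, before treatment. The control group received PBS, although another label calls it untreated, and the other group received SHP099 hydrochloride at 5 mg/kg into the stomach once a day, both for 14 days and with 6 mice in each. SHP099 is an allosteric inhibitor of the phosphatase SHP2, which Ptpn11 encodes. Both groups carried MC38 tumours and no other treatment is named, and how many tumours entered each library is not stated in the labels.

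Each group was sequenced as 1 library, so no difference between them has a replicate check and no test was possible. The intervals below are exact 95% intervals that cover counting error only. After filters each library happened to keep 7689 barcodes, with a median of 9185 UMIs (molecular barcodes that mark single captured RNA molecules) in control and 10733 in SHP099, and 100 barcodes occurred in both libraries. Use of the genes per cell was read in cells with at least 2 UMIs summed over Cd3d, Cd3e and Cd3g, the chains that carry the receptor's signal. These CD3-positive cells numbered 531 of 7689 in control (6.91%, interval 6.35 to 7.5) and 392 of 7689 in SHP099 (5.10%, 4.62 to 5.61), and 12 and 6 of them carried a shared barcode. As CD3 UMIs chose these cells, their CD3 level is a description only. The choice of genes was also made with earlier results of these data in view.

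A T cell receptor pairs an alpha with a beta chain or a gamma with a delta chain. Each chain joins a variable part, assembled by rearranging gene segments in the developing T cell, to a constant part that anchors it in the membrane beside CD3. The beta locus has a pair of constant genes, each with its own cluster of joining segments, and a T cell usually makes a single working beta chain from either. The delta gene lies inside the alpha locus and is lost from a chromosome when alpha segments are joined there. Gamma genes can be rearranged and transcribed in alpha-beta T cells too. Natural killer (NK) cells have no rearranged receptor but are known to hold transcripts of some constant genes.

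The beta pair is shown first, because whether its transcripts can be told apart decides how the counts are read. On GRCm38, with the GENCODE M21 annotation, Trbc1 (ENSMUSG00000076490) lies at chr6:41538218-41539881 and Trbc2 (ENSMUSG00000076498) at chr6:41546730-41548352, both on the plus strand. Their coding parts are 518 bases long and differ at 23 bases, of which 1 lies in the 375 bases of exon 1 and 22 in the 143 bases of exons 2 to 4. The joined coding exons 2 to 4 follow, coding bases 376 to 518, read from the genome between chr6:41539114-41539662 and chr6:41547610-41548178, with the differing bases in capitals.
Trbc1: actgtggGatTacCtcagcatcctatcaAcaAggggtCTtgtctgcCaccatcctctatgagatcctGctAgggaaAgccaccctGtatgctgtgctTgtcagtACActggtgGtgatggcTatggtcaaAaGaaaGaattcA
Trbc2: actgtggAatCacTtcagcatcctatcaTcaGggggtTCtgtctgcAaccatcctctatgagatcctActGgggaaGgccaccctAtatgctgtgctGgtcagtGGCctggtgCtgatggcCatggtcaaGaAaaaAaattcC
A read within exon 1 can fit both genes, since the longest stretch they share is 259 bases. The 3' untranslated regions, where a 3' library places most reads, were 48.9% identical when aligned end to end. That alignment held no identical stretch over 8 bases, and stretches shared at other offsets were not searched. How many reads of either gene fell in the shared exon was not tested, so the counts of the beta pair are uncertain to that extent.

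The gamma genes are shown for the same reason. Tcrg-C1 (ENSMUSG00000076749) lies at chr13:19214103-19217024 and Tcrg-C4 (ENSMUSG00000076757) at chr13:19344558-19352756 on the plus strand, and Tcrg-C2 (ENSMUSG00000076752) at chr13:19304649-19307551 on the minus strand. The last coding exon of each follows, 140 bases long, read from chr13:19216476-19216615, chr13:19305063-19305202 and chr13:19352201-19352340 in that order, with a capital wherever at least 1 of the genes differs.
Tcrg-C1: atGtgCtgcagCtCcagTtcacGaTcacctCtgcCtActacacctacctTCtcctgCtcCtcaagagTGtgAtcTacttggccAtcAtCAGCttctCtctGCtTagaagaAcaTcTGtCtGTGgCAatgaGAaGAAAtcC
Tcrg-C2: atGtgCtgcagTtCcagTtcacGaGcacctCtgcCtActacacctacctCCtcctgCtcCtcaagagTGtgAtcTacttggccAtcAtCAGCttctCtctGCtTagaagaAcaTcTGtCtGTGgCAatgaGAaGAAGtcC
Tcrg-C4: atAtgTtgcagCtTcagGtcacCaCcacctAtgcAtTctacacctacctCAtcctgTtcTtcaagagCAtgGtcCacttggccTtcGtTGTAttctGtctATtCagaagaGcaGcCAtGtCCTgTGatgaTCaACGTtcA
In this exon Tcrg-C1 and Tcrg-C2 differ at 4 bases, and each differs from Tcrg-C4 at 44. Over the whole coding part Tcrg-C1 and Tcrg-C2 were 94.6% identical and over the 3' untranslated region 93.2%, with a shared stretch of 104 bases. Counts of Tcrg-C1 and Tcrg-C2 are therefore uncertain between these copies, and those of Tcrg-C4 less so. Trdc (ENSMUSG00000104876, chr14:54142851-54148868) and Trac (ENSMUSG00000076928, chr14:54220521-54224206), both on the plus strand, were 48.3% identical over their coding parts.

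Receptor transcripts lay almost wholly in lymphocytes. Cells of both libraries were clustered without receptor or CD3 genes. Clusters 9 and 18 were T-like, with all 9 T cell markers, among them Cd2, Cd5, Lck and Bcl11b, and cluster 12 was NK-like, with all 7 NK markers. The T cell markers also included Cd3d, Cd3e and Cd3g, which chose the CD3-positive cells. The share of CD3-positive cells in the T-like clusters is therefore no separate check of their name. The T-like clusters held 517 control and 399 SHP099 cells, of which 93.8% and 91.5% were CD3-positive, and the NK-like cluster held 99 and 53. Of all UMIs in kept cells, these clusters held 90.8% and 92.2% for Trac, 92.1% and 92.2% for Trbc1 and 91.7% and 91.3% for Trbc2, in control and SHP099. For Trdc the shares were 94.4% of 36 UMIs and 91.7% of 12, and for Tcrg-C4 93.3% of 15 and 96.7% of 30.

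Levels are given as CPM, a gene's UMIs scaled to the same total in every set of cells named. They come from 3' reads and are compared between cells and libraries, not between genes. Receptor and CD3 genes aside, cluster 9 was led by Nkg7, Cd8b1 and Cd8a, genes of cytotoxic and CD8 cells, and cluster 18 by Tnfrsf4, Ikzf2 and Icos. Trac stood at 702 CPM in control and 869 in SHP099 in cluster 9, at 1189 and 1332 in cluster 18, and at 32.9 and 19.7 in the NK-like cluster. Trbc1 stood at 905 and 440 CPM in cluster 9, at 297 and 191 in cluster 18, and at 504 and 404 in the NK-like cluster. Trbc2 stood at 1251 and 1350 CPM in cluster 9, at 714 and 632 in cluster 18, and at 340 and 207 in the NK-like cluster. Trac was highest in cluster 18 and low in NK-like cells, Trbc2 was highest in cluster 9, and Trbc1 in NK-like cells lay between both T-like clusters. In SHP099 the Trbc1 intervals of cluster 9 and of NK-like cells overlapped (396 to 488 and 322 to 502 CPM).

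**Figure D1:**
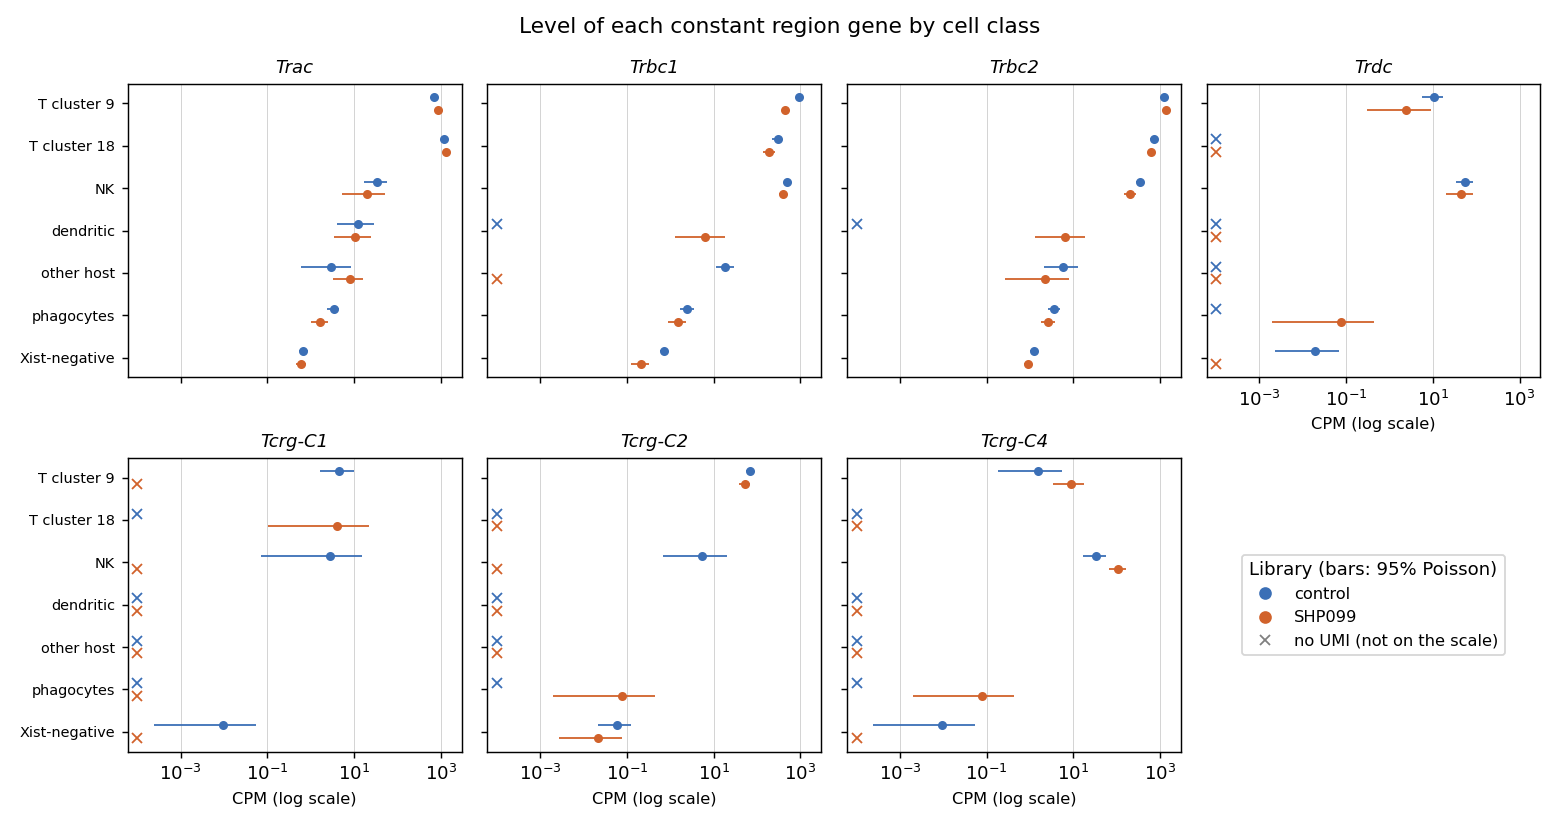
Level of each constant region gene in CPM (log axis) in each cell class of the control and SHP099 libraries, points with 95% Poisson intervals, crosses at the left edge for classes with no UMI. Trac and Trbc2 are highest in both T-like clusters, and Trac is at 32.9 and 19.7 CPM in NK-like cells. Trbc1 is highest in cluster 9, but NK-like cells (504 and 404 CPM) lie above cluster 18. Phagocytes and Xist-negative cells lie under 5 CPM for every gene.

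The remaining classes had few receptor UMIs, and free RNA in droplets can give such counts. In phagocytes, the macrophage-like and monocyte-like clusters, Trbc2 stood at 3.61 CPM in control and 2.65 in SHP099, and in clusters without Xist RNA at 1.21 and 0.922. To compare shares of cells at 1 depth, each cell was thinned to 1000 UMIs and shallower cells were left out, 22 control and 15 SHP099 cells of the CD3-positive ones. A Trbc2 UMI was then found in 57.2% and 58.9% of CD3-positive cells (81.2% and 80.1% before thinning, at median depths of 2564 and 2298.5 UMIs). Among phagocytes with no CD3 UMI it was found in 0.157% and 0.115% (0.684% and 0.813% before thinning), at median depths of 4306 and 4167 UMIs. Trbc1 was found in 33.0% and 25.2% of CD3-positive cells after thinning and in 0.118% and 0.0382% of those phagocytes (46.5% and 38.5%, and 0.304% and 0.296%, before thinning). The shares in CD3-positive cells were thus far over those in these phagocytes, which should lack the genes. Both sets were chosen by their CD3 UMIs, so part of the gap is set by that choice. Over all phagocytes, with or without CD3 UMIs, Trbc2 was found in 1.01% and 0.979% before thinning. The part of free RNA was not tested.

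Not all CD3-positive cells were T-like. Of the 531 control and 392 SHP099 cells, 485 and 365 lay in the T-like clusters, 6 and 1 in the NK-like cluster, 9 and 11 among phagocytes and 26 and 13 in the Xist-negative clusters. The Xist-negative ones were few but deeply sequenced, and held 34.5% and 26.9% of all UMIs of the CD3-positive cells. Macrophage markers summed to 667 CPM in control and 1285 in SHP099 over CD3-positive cells, with 6 of 8 measured markers at least 1.5-fold higher and none of the 9 at 0, and fibroblast markers summed to 811 and 323. Restricted to T-like and NK-like clusters, macrophage markers summed to 260 and 324 CPM, with 1 of 9 at 0 in control. The part of these other cells in the results was not tested, and the levels of Trac, Trbc1, Trbc2 and Tcrg-C2 are given over both sets of cells.

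Trac, the alpha chain, was higher in the SHP099 library over all CD3-positive cells, though not in every set of them. In CD3-positive cells it had 1191 UMIs in control and 1009 in SHP099, which is 477 CPM (451 to 505) and 654 CPM (614 to 696), a log2 ratio of SHP099 over control of 0.45 (0.33 to 0.58). In the T-like and NK-like clusters alone the ratio was 0.35 (0.23 to 0.47), and in cells with Cd8a or Cd8b1 and no Cd4 UMI 0.31 (0.16 to 0.46). Over all cells of cluster 18 it was 0.16 (-0.08 to 0.41), an interval that includes 0. In the 24 control and 38 SHP099 CD3-positive cells with a Foxp3 UMI Trac was lower in SHP099, at -0.54 (-0.92 to -0.16). The share of cells with a Trac UMI was 78.2% (74.4 to 81.6) in control and 80.4% (76.1 to 84.2) in SHP099, with intervals that overlap, and the cells with Trac held a median of 2 and 3 UMIs. The 3 CD3 genes that chose the cells had log2 ratios of 0.09 (Cd3d), 0.16 (Cd3e) and 0.16 (Cd3g), and Cd247, the zeta chain, 0.05. Per 100 CD3 UMIs, Trac stood at 22.3 (21 to 23.6) in control and 27.8 (26.1 to 29.5) in SHP099.

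Over all CD3-positive cells Trbc1 was lower in the SHP099 library and Trbc2 was not. In those without Cd4, Cd8a or Cd8b1 UMIs, described further below, Trbc1 was higher. In CD3-positive cells Trbc1 had 1318 UMIs in control and 405 in SHP099, which is 528 CPM (500.2 to 558) and 262 CPM (238 to 289). The log2 ratio was -1.01 (-1.17 to -0.85), a level 2.01-fold lower, and -1.12 (-1.29 to -0.96) in the T-like and NK-like clusters alone. Trbc2 had 1878 and 1266 UMIs, or 753 CPM (719 to 788) and 820 CPM (776 to 867), with a log2 ratio of 0.12 (0.02 to 0.23), and of 0.01 (-0.09 to 0.12) in the T-like and NK-like clusters. With cells of 1 or more CD3 UMIs the ratio of Trbc2 was -0.060 (-0.16 to 0.04), so its sign depended on the cells taken. Per 100 CD3 UMIs, Trbc1 stood at 24.6 (23.3 to 26.0) and 11.2 (10.1 to 12.3), and Trbc2 at 35.1 (33.5 to 36.7) and 34.9 (33.0 to 36.8). Of all beta constant UMIs in these cells, Trbc1 made up 41.2% in control and 24.2% in SHP099.

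The background sets these values in place. Of 7552 genes at 10 CPM or more in either library, 8.14% were at least 1.5-fold higher and 6.28% at least 1.5-fold lower in SHP099, and the median log2 ratio was 0.05. Of the 7 constant genes, 4 reached that level (Trac, Trbc1, Trbc2 and Tcrg-C2), 0 were higher and 1, Trbc1, was lower by that measure, and their median was -0.15. Trbc1 ranked 134th of 7552 from the lowest ratio. In the T-like and NK-like clusters, where 11% of 6840 genes were higher and 7% lower, 5 constant genes reached 10 CPM and 3 of them were lower, namely Trbc1, Tcrg-C2 and Trdc, with 0 higher. Trdc reached 10 CPM in control only, at 10.6 CPM on 16 UMIs against 1.96 CPM on 2 UMIs in SHP099. It thus entered this count through the library where it was higher. Tcrg-C2 was just past the limit, at 1.51-fold lower, so the count rests mainly on Trbc1.

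**Figure D2:**
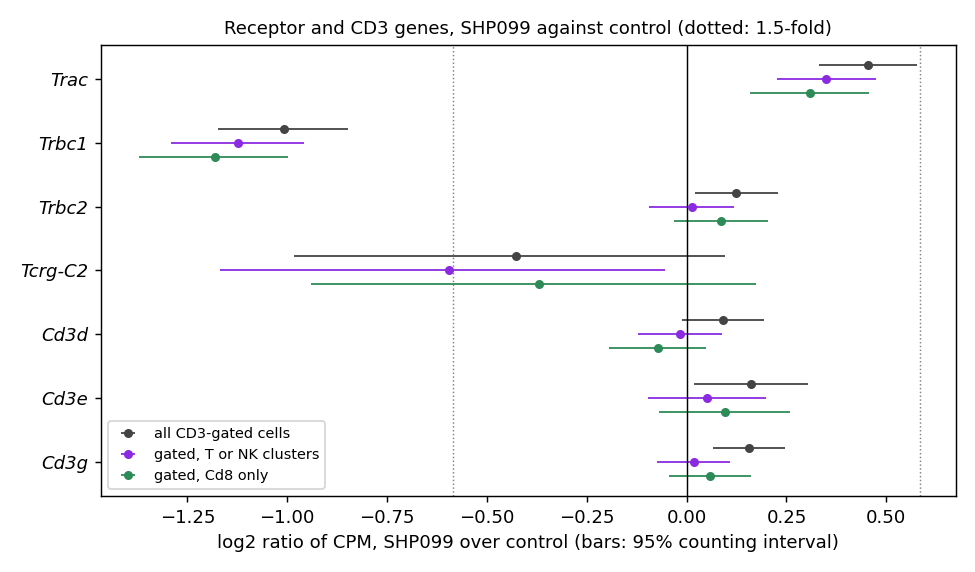
Log2 ratio of CPM, SHP099 over control, for constant region and CD3 genes in all CD3-positive cells, in those of T-like or NK-like clusters and in those with Cd8 and no Cd4 UMIs, with 95% counting intervals and dotted lines at 1.5-fold (gated in the key means CD3-positive). Trbc1 lies at -1.01, -1.12 and -1.18, beyond the dotted line in each set, while Trac lies between 0.31 and 0.45 and Trbc2 and the CD3 genes near 0.

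The lower Trbc1 level came with fewer UMIs in each cell that had any, more than with fewer such cells. Trbc1 was found in 247 control cells (46.5%, 42.2 to 50.9) and 151 SHP099 cells (38.5%, 33.7 to 43.5). The cells with Trbc1 held a median of 4 UMIs in control (quartiles 2 and 7, highest 28) and 2 in SHP099 (quartiles 1 and 3, highest 19). At least 10 Trbc1 UMIs were found in 45 control cells (8.47%, 6.25 to 11.2) and 4 SHP099 cells (1.02%, 0.279 to 2.59). For Trbc2, cells with UMIs held a median of 3 in both libraries, and 44 control (8.29%) and 28 SHP099 cells (7.14%) had at least 10. With each cell counted for at most 4 Trbc1 UMIs, a measure chosen after seeing the data, the log2 ratio of Trbc1 was -0.47 (-0.66 to -0.28). The 10 cells with the most Trbc1 gave 14.0% of its UMIs in control and 25.4% in SHP099.

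Many T cells held RNA of both beta constant genes. Among CD3-positive cells, 52 control and 20 SHP099 cells had Trbc1 alone, 236 and 183 had Trbc2 alone, 195 and 131 had both, and 48 and 58 had neither. Trbc1 made up 18.1% (13.8 to 23.0) of the single-gene cells in control and 9.85% (6.12 to 14.8) in SHP099, a difference of -8.20 percentage points (-14.1 to -1.89). Of cells with any beta constant UMI, 51.1% (46.6 to 55.7) in control and 45.2% (39.8 to 50.7) in SHP099 had Trbc1, a difference of -5.93 points whose interval, -12.8 to 1.04, includes 0. Thinned to 1000 UMIs, these shares were 45.4% (40.3 to 50.6) and 38.0% (32.0 to 44.3), with intervals that overlap. A second random draw gave a larger difference, -9.79 points (-17.4 to -1.93), which leaves out 0. No interval of the difference was taken for the first draw, and the size of the difference depended on the draw. Thinned to 2000 UMIs, with 161 and 165 shallower cells left out, the shares were 51.7% (46.1 to 57.4) and 40% (32.8 to 47.6). Cells with both made up 46.7% (41.8 to 51.6) and 46.3% (40.4 to 52.3) of the cells with 2 or more beta UMIs, a difference of -0.36 points (-7.82 to 7.14). In the second draw thinned to 1000 UMIs they made up 39.2% (33.1 to 45.6) and 32.0% (25.1 to 39.5). Those intervals overlap, and the likeness of the libraries in this share was closer before thinning.

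Having Trbc1 did not go with lacking Trbc2. In control a Trbc2 UMI was found in 78.9% (73.3 to 83.9) of cells with Trbc1 and in 83.1% (78.2 to 87.3) of those without. In SHP099 it was found in 86.8% (80.3 to 91.7) of cells with Trbc1 and in 75.9% (70.0 to 81.2) of those without. The cells with Trbc1 were also the deeper ones, with medians of 2828 against 2356 UMIs in control and 2588 against 2148 in SHP099. Even among cells with 4 or more Trbc1 UMIs, 116 of 135 in control (85.9%) and 25 of 28 in SHP099 (89.3%) had Trbc2. The level of Trbc2 in cells with Trbc1 was 649 CPM in control and 1088 in SHP099, and in cells without it 846 and 678.

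The mix within single cells differed between the libraries. Among cells with 4 or more beta UMIs, 300 in control and 181 in SHP099, the share with no Trbc1 was 36.3% (30.9 to 42.1) and 41.4% (34.2 to 49.0). Cells in which Trbc1 made up some but at most 0.25 of the beta UMIs were 9.0% (6.01 to 12.8) in control and 20.4% (14.8 to 27.1) in SHP099. Cells above 0.75 but with some Trbc2 were 15.7% (11.7 to 20.3) and 4.97% (2.30 to 9.23), and cells with Trbc1 alone 6.33% (3.86 to 9.71) and 1.66% (0.343 to 4.77). Among the cells with Trbc1, its median share of the beta UMIs was 66.7% (quartiles 40.5 and 83.3) in control and 40% (20 and 60) in SHP099. The intervals of the libraries thus overlapped for the share of cells without Trbc1 and were apart at both ends of the range among cells that had it, except for cells with Trbc1 alone.

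**Figure D3:**
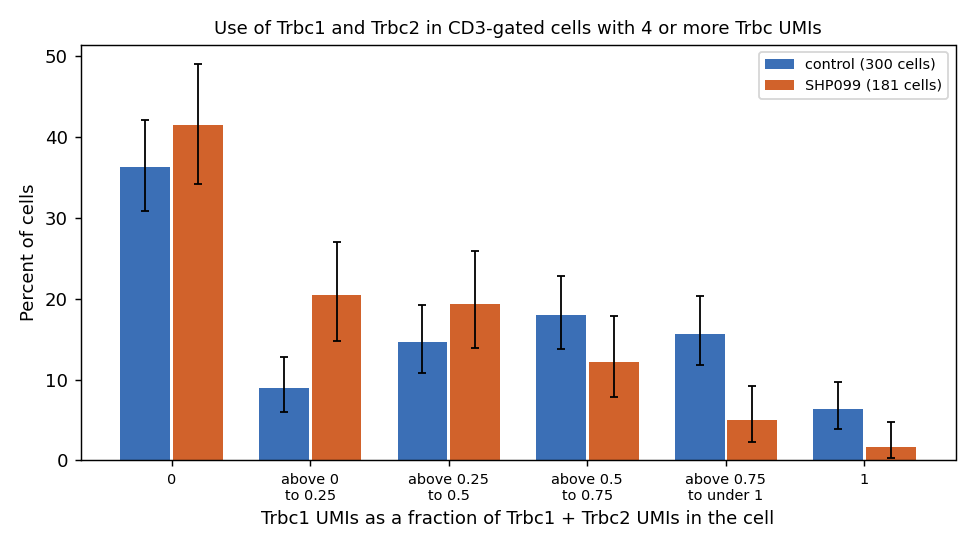
Percent of CD3-positive cells with 4 or more beta constant UMIs (300 control, 181 SHP099) in each range of the fraction of these UMIs that were Trbc1, with exact 95% binomial intervals. SHP099 bars are taller from above 0 to 0.5 and control bars are taller above 0.5, with 15.7% against 4.97% of cells above 0.75 and under 1.

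Co-receptor RNA split the CD3-positive cells as follows. Cd8a or Cd8b1 without Cd4 was found in 366 control and 232 SHP099 cells, Cd4 without Cd8 in 30 and 31, both in 4 and 3, and neither in 131 and 126, whose median depths of 1738 and 1627 UMIs were the lowest of these sets. In Cd8 cells Trbc1 had 1189 and 299 UMIs, or 689 and 304 CPM, a log2 ratio of -1.18 (-1.37 to -1.0), and 56.0% (50.6 to 61.2) and 46.8% (40.1 to 53.6) of those with any beta UMI had Trbc1, a difference of -9.12 points (-17.3 to -0.732). In Cd4 cells 8 of 25 in control (32.0%, 14.9 to 53.5) and 6 of 22 in SHP099 (27.3%, 10.7 to 50.2) had it. In these few Cd4 cells Trbc1 had 34 and 10 UMIs, a log2 ratio of -1.39 (-2.58 to -0.35), of which 20 control UMIs lay in 1 cell, while Trbc2 stood at 0.87 (0.36 to 1.40), Trac at 1.03 (0.57 to 1.49) and Cd3d at 0.82 (0.39 to 1.25). In cells with neither co-receptor Trbc1 stood at 150.0 and 218 CPM, a log2 ratio of 0.54 (0.11 to 0.97), but the CD3 genes in these cells were higher too, at 0.57 (Cd3d), 0.69 (Cd3e) and 0.86 (Cd3g), as was Trac at 0.87. Trbc1 was found in 38.8% (29.4 to 48.9) and 46.0% (35.2 to 57) of those with any beta UMI. Foxp3, the regulatory T cell factor, was found in 24 and 38 cells, and Trbc1 in them stood at 256 and 152 CPM, a log2 ratio of -0.75 (-1.60 to 0.12). In these cells Trac (-0.54), Cd3g (-0.48), Cd3e (-0.38) and Cd3d (-0.21) were lower too, while Trbc2 was at -0.01. Their median depths were 2301 UMIs in control and 3741.5 in SHP099.

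All cells with Cd8a or Cd8b1, including the 4 and 3 that also had Cd4, were split by Pdcd1 and Havcr2, which encode the inhibitory receptors PD-1 and TIM-3. The difference was larger where either had a UMI. In these 205 control and 100 SHP099 cells Trbc1 stood at 849 CPM (793 to 909) and 303 CPM (253 to 360), a log2 ratio of -1.48 (-1.76 to -1.22), and the share of cells with Trbc1 was 60.7% and 45.4%, a difference of -15.3 points (-26.9 to -3.28). In the 165 and 135 Cd8 cells without them it stood at 469 CPM (422 to 521) and 297 CPM (254 to 345), a log2 ratio of -0.66 (-0.93 to -0.40), with shares of 50% and 47.7%, a difference of -2.34 points (-13.8 to 9.26). Trbc1 was thus alike in both kinds of Cd8 cell in SHP099 and higher in the Pdcd1 or Havcr2 cells in control, and in both libraries the Pdcd1 or Havcr2 cells were the deeper ones (medians of 3330 against 2479 UMIs in control and 3115.5 against 2265 in SHP099). Trac had nearly the same ratio in both kinds, 0.36 (0.16 to 0.55) and 0.36 (0.12 to 0.59), and Trbc2 0.17 (0.01 to 0.32) and 0.17 (-0.01 to 0.35). The differences between these kinds of cell were not tested.

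**Figure D4:**
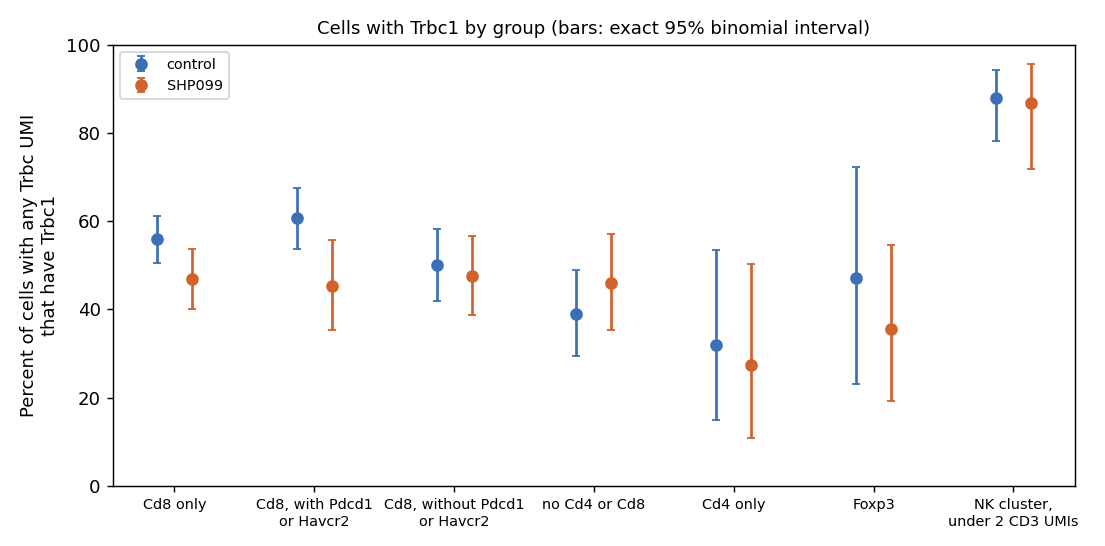
Percent of cells with any beta constant UMI that had Trbc1, by set of cells and library, points with exact 95% binomial intervals. Control lies at 60.7% and SHP099 at 45.4% in Cd8 cells with Pdcd1 or Havcr2, the intervals overlap in every set, and NK-like cells with fewer than 2 CD3 UMIs lie at 87.8% and 86.8%.

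Trac was paired with a beta gene in most CD3-positive cells. Both Trac and a beta gene were found in 385 control cells (72.5%, 68.5 to 76.3) and 270 SHP099 cells (68.9%, 64.0 to 73.4), Trac alone in 30 and 45, a beta gene alone in 98 and 64, and neither in 18 (3.39%) and 13 (3.32%). Cells with Trac and no beta gene were 5.65% (3.84 to 7.97) in control and 11.5% (8.5 to 15.1) in SHP099. Among those with neither co-receptor they were 17 of 131 (13%) and 32 of 126 (25.4%), and among Cd8 cells 9 of 366 (2.46%) and 5 of 232 (2.16%). Just inside the threshold, 75% of 44 control and 76.7% of 30 SHP099 cells with 2 CD3 UMIs had Trac or a beta gene, and just outside it 16.4% of 189 and 15.1% of 179 cells with 1. With 6 or more CD3 UMIs the shares were 98.6% and 99.6%.

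The delta gene was rare in CD3-positive cells. Trdc had 18 UMIs in 7 control cells (1.32%, 0.532 to 2.70) and 2 UMIs in 1 SHP099 cell (0.255%, 0.00646 to 1.41). The log2 ratio was -2.10 with an interval of -5.63 to -0.41. None of the Cd8 cells had Trdc, 0 of 366 and 0 of 232, which allows shares of up to 0.820% and 1.29%, and 6 of the 7 control cells had neither co-receptor. All 7 control cells also had a beta gene and 2 had Trac, while the SHP099 cell had neither.

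Few cells had the chains of a gamma-delta receptor together. Trdc with a gamma constant gene and no Trac was found in 3 of 531 control cells (0.565%, 0.117 to 1.64) and 0 of 392 SHP099 cells, which allows up to 0.765%, so no difference was detectable at this depth. All 3 lay in the T-like clusters and all 3 also had beta UMIs, so 0 cells had the pattern without any alpha or beta UMI. The first had 7 Trbc2, 2 Trdc and 2 Tcrg-C1 UMIs, with 38 of Ccl5, a chemokine of cytotoxic cells. The second had 20 Trbc1, 6 Trbc2, 6 Trdc and 2 Tcrg-C2 UMIs, with 2 of Cd4, 4 of Ramp3 and 1 of Klrb1c. The third had 1 Trbc2, 4 Trdc and 1 Tcrg-C1 UMI, with 7 of Klrk1 and 1 of Ncr1, both NK receptor genes. Of the listed genes, those highest in these cells relative to the other CD3-positive cells were Ncr1, Klrb1c, Trat1, Ramp3 and Lcp2, on 1, 1, 1, 4 and 3 UMIs. The lowest were Gzmb, Tyrobp, Skap1, Maf and Prf1, all at 0 UMIs. The 3 cells had 1830, 3848 and 1225 UMIs in all. In the other CD3-positive cells Gzmb stood at 760 CPM, but Tyrobp, Skap1, Maf and Prf1 at 151, 105, 97.7 and 91.8 CPM. At this depth 0 UMIs of those genes does not show that the cells lack them. None of the 3 had a UMI of Il17a, Sox13, Blk or Cd163l1, genes typical of gamma-delta T cells that make interleukin 17. Over all other CD3-positive cells Il17a had 2 UMIs and the rest of these genes 0, so their absence does not set the 3 cells apart. Ramp3 and Tnfsf11, on the same list of gamma-delta and type 17 genes, had 4 and 1 UMIs, all in the second cell. The genes absent from the 3 cells, and Tnfsf11, Ccl5, Klrk1 and Cd4, were named here after their values were seen.

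Tcrg-C2 was the gamma gene with the most UMIs, and it lay in Cd8 cells that had alpha and beta chains. It had 96 UMIs in 50 control cells (9.42%, 7.07 to 12.2) and 44 UMIs in 21 SHP099 cells (5.36%, 3.35 to 8.07), at 38.5 CPM (31.2 to 47.0) and 28.5 CPM (20.7 to 38.3). The log2 ratio was -0.43 (-0.98 to 0.10), -0.59 (-1.17 to -0.05) in the T-like and NK-like clusters, and -1.46 in cells without phagocyte marker UMIs. Of these cells 48 of 50 and 19 of 21 had Cd8 and no Cd4 UMI, 45 and 19 had Trac, and all 50 and 21 had Trac or a beta gene. Only 1 control cell with Tcrg-C2 had Trdc, and cluster 18 had no UMI of it. Of the variable genes, Trgv2, a gamma segment, was found in 21 and 13 CD3-positive cells, 21 and 12 of them Cd8 cells, and 14 and 6 of them also had Tcrg-C2. In SHP099, 1 cell held 11 of the 44 Tcrg-C2 UMIs, and the highest in control was 5.

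The other gamma genes were near the limit of detection in CD3-positive cells. Tcrg-C1 had 6 UMIs in 4 control cells and 1 in 1 SHP099 cell, a log2 ratio of -1.34 (-7.42 to 1.15). Tcrg-C4 had 1 UMI in control and 8 UMIs in 7 cells in SHP099, a log2 ratio of 2.66 (0.79 to 9.16), and of 0.57 in cells without phagocyte marker UMIs. Of those 7 cells, 7 had a beta gene and 5 were Cd8 cells. Tcrg-C3, a further gamma gene of the files, had 0 UMIs in both libraries.

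In NK-like cells the beta genes and Trdc were present with little Trac. Trbc1 had 184 UMIs in 70 of 99 control cells and 82 UMIs in 34 of 53 SHP099 cells, a log2 ratio of -0.32 (-0.71 to 0.07). Trbc2 had 124 and 42 UMIs in 42 and 19 cells, a log2 ratio of -0.71 (-1.25 to -0.20), and Trac had 12 and 4, with -0.72 (-2.82 to 0.99). The cluster also held a few CD3-positive cells, 6 in control and 1 in SHP099. In its 93 and 52 cells with fewer than 2 CD3 UMIs, Trac had 4 UMIs in each library, with a log2 ratio of 0.74 (-1.66 to 3.19), so its direction turned, and Trbc2 stood at -0.51 (-1.07 to 0.02) and Trbc1 at -0.31 (-0.71 to 0.08). Of NK-like cells with any beta UMI, 87.5% (78.2 to 93.8) in control and 87.2% (72.6 to 95.7) in SHP099 had Trbc1, and in those with fewer than 2 CD3 UMIs 87.8% and 86.8%. A beta gene without Trac was found in 75 of 99 (75.8%) and 36 of 53 (67.9%), the reverse of the pattern in T-like cells, where Trac and a beta gene were mostly found together.

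Trdc was found in 15 of 99 NK-like cells in control (15.2%, 54.8 CPM) and 7 of 53 in SHP099 (13.2%, 44.4 CPM), with a log2 ratio of -0.30 (-1.62 to 0.90). Tcrg-C4 had 12 UMIs in 8 cells and 22 UMIs in 10 cells, or 32.9 CPM (17 to 57.4) and 108 CPM (68.0 to 164), a log2 ratio of 1.71 (0.65 to 2.87). No NK-like cell had Trdc and a gamma gene together, 0 of 99 and 0 of 53, which allows up to 3.03% and 5.66%. In this small cluster 19.7% of 6839 genes were at least 1.5-fold higher and 25.5% lower, and of the 5 constant genes at 10 CPM or more 1 was higher (Tcrg-C4) and 2 were lower (Trac and Trbc2), so such differences were common among all genes there.

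Variable gene segments were sparsely captured. Of 260 variable, diversity and joining genes in the files, 38 had UMIs in CD3-positive cells, 175 UMIs in all. The 5 with the most UMIs were Trgv2 (45), Trav8-1 (37), Trav10d (18), Trav16 (6) and Trbv12-2 (4). Trav8-1 was found in 22 of 392 SHP099 cells (5.61%, 3.55 to 8.37) and Trav10d in 13 (3.32%, 1.78 to 5.60), against 0 of 531 control cells for each, which allows up to 0.565%. Trav16 was found in 5 SHP099 and 0 control cells, and Trbv12-2 in 2 cells of each library.

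Trav8-1 and Trav10d overlapped in part. Of the 25 SHP099 cells with either (6.38%, 4.17 to 9.27), 10 had both, all 25 lay in cluster 9, 24 had Cd8 and 15 had Pdcd1 or Havcr2. All 25 had Trbc2, with 174 UMIs, and 17 had Trbc1, with 38 UMIs, a median Trbc1 share of 11.1%. This overlap was looked for after the values were seen. Without these cells the log2 ratio of Trbc1 was -1.04 (-1.21 to -0.88), of Trac 0.36 (0.24 to 0.49) and of Trbc2 0.02 (-0.09 to 0.13), and the difference in cells with Trbc1 was -7.77 points (-14.8 to -0.641), an interval that leaves out 0. The cells left out lay in SHP099 only, and 17 of 25 had Trbc1, against 45.2% of all SHP099 cells with a beta UMI. Leaving them out could thus only widen that difference, so its interval is no further evidence.

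Of 28 genes of CD3 and receptor signalling, 27 reached 10 CPM in CD3-positive cells, and 3 were at least 1.5-fold higher in SHP099 and 0 lower, beside 8.14% and 6.28% of all genes, with a median log2 ratio of 0.29 beside 0.05 over all genes. The 3 were Cd5 (1.07, 0.72 to 1.44) and Cd6 (0.63, 0.32 to 0.94), surface proteins that damp receptor signals, and Ptpn6 (0.74, 0.39 to 1.10), the phosphatase SHP1. The lowest were Nfatc1 (-0.30), a transcription factor of activated T cells, and Thy1 (-0.19). In the T-like and NK-like clusters 2 were higher, with Cd6 at 0.52, and the median was 0.15 beside 0.08 over all genes. None of the 4 genes of the pre-T-cell receptor and of rearrangement (Ptcra, Rag1, Rag2 and Dntt) reached 10 CPM.

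Of 17 genes linked to gamma-delta and type 17 T cells, 6 reached 10 CPM, of which Maf (0.98, 0.69 to 1.28) and Tmem176a (0.73, -0.17 to 1.69) were higher and Ramp3 (-0.80, -1.51 to -0.17) was lower, again beside 8.14% and 6.28% of all genes, and the list's median was 0.31. Tmem176a reached 10 CPM in SHP099 only, at 14.3 CPM against 8.42 in control, so it entered the count through the library where it was higher. In the T-like and NK-like clusters 4 reached 10 CPM, without Tmem176a, Maf was higher (0.83), Ramp3 lower (-1.32), and the median was -0.13. In between over all CD3-positive cells lay Ramp1 (0.34), Tmem176b (0.27) and Tnfsf11 (-0.23). Blk, Sox13 and Cd163l1, which mark such cells, had no UMI in any CD3-positive cell, and Il17a had 2. Of 16 cytotoxic and NK genes 14 reached 10 CPM, and 1 was higher, Tyrobp (0.72, 0.49 to 0.96), an adaptor that phagocytes also express and that stood at 0.19 (-0.20 to 0.58) in the T-like and NK-like clusters. None was lower, and the median was 0.02. In those clusters 0 of the 14 were higher and 1 lower, Gzma (-0.70, -1.09 to -0.34), with a median of -0.11, beside 11% and 7% of all genes there. Over all CD3-positive cells Gzmk was at 0.56, Eomes at 0.31, and the lowest were Gzma (-0.54), Klrd1 (-0.30) and Ccl5 (-0.18).

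The genes nearest in pattern were sought over 38 sums of cells, 1 for each cluster and library with at least 20 cells, by Pearson's correlation of log2(CPM + 1). These sums share libraries and differ in depth, so the values are descriptions. Nearest to Trac were Cd3g (r = 0.96), Crbn, Ctla4, Cd2 and Cxcr6 (0.93). Among the nearest to Trbc2 were Icos (0.96), Gm19585, Sh2d2a and Zap70 (0.95). Nearest to Trdc, which had UMIs in 6 of the sums, were Klra7 (0.98), Gzmd, Gzme, Klra9 and Klra5 (0.96), NK receptors and granzymes. Tcrg-C1 had UMIs in 4 sums, and its highest value, 0.69 with Krt83, is no finding.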

How the data were processed

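The UMI counts were deposited by the authors as 1 matrix per library. The submitters' processing notes name Cell Ranger and the builds mm10 and GRCm38, and per the file headers the software version was 3.1.0. No source used here gives the gene annotation. Barcodes with under 200 genes or over 20% mitochondrial UMIs, and doublets called by scrublet in scanpy 1.11.5 (263 control and 211 SHP099 barcodes, 3.31% and 2.67% against an expected 6.36% and 6.32%), were left out.

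Counts of both libraries were scaled, and 2000 variable genes without receptor, CD3, mitochondrial, ribosomal, haemoglobin and immunoglobulin genes gave 30 components, 15 neighbours and Leiden clusters at resolution 1. A cluster was named from at least 3 markers found in 10% of its cells and 2 times above the rest; this scoring was set after the files were seen. Clusters with Xist under 0.1 of the median cluster were called Xist-negative.

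Log2 ratios were of CPM + 0.5, SHP099 over control. Counts of genes past 1.5-fold cover genes at 10 CPM or more in either library, while the constant genes have a ratio at any level. Intervals were exact Poisson or Clopper-Pearson intervals, conditional binomial intervals for ratios and Newcombe intervals for differences. Where a count was 0, the limit given is 3 counts of the total. The named genes were the 7 constant genes, CD3 and co-receptor genes, the 3 highest and 3 lowest of each of 4 lists, the 5 highest and lowest in gamma-delta cells, the 5 nearest in pattern and the 5 variable genes with the most UMIs. Some genes that this rule names are not reported here. These genes and lists were chosen with earlier results of these data known. Alternatives were other gates, filters, depths, sets of cells and scalings.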

Additional observations from a re-analysis of the deposited data

How the results depend on the processing

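Over the alternatives run on CD3-positive cells no ratio past 1.5-fold changed sign, while Trbc2, which lay near 0, did. In NK-like cells Trac turned from -0.72 to 0.74 without the CD3-positive ones. CD3-positive cells with neither co-receptor were not run as an alternative. In them Trbc1 was higher in SHP099, at 0.54 (0.11 to 0.97), as were the CD3 genes. Over 12 alternatives the log2 ratio of Trbc1 ran from -1.18 to -0.47, and the difference in single-gene cells over 9 ran from -9.53 to -7.80 points. With cells of 1 or more CD3 UMIs, Trac was at 0.29 and Trbc2 at -0.060. In Cd8 cells Trac was at 0.31 and Trbc1 at -1.18, and per CD3 UMI Trac was at 0.32 and Trbc2 at -0.0096. Trbc2 was at 0.013 in T-like and NK-like clusters, 0.019 without Trav8-1 or Trav10d cells and -0.013 with each cell counted alike. With at most 4 Trbc1 UMIs a cell, Trbc1 was at -0.47. Without cells holding phagocyte marker UMIs, Tcrg-C2 was at -1.46 and Tcrg-C4 at 0.57. The share of cells with both beta genes was 39.2% in control and 32.0% in SHP099 when thinned to 1000 UMIs, and 57.3% and 56.9% with 4 or more beta UMIs. The gamma-delta share in control was 0 when cells with beta UMIs were left out. Cells with Trbc1 over 0.25 of 4 or more beta UMIs differed by -16.5 points (-25.3 to -7.35). The plain difference in cells with Trbc1, whose interval includes 0, was -9.79 (-17.4 to -1.93) in the second random draw thinned to 1000 UMIs. The first draw gave a smaller difference, between 45.4% and 38.0%, with no interval of its own. The interval of the plain difference also left out 0 with doublets kept and without Trav8-1 or Trav10d cells. Those Trav cells lay in SHP099 only and more often had Trbc1 than the rest, so leaving them out could only widen the difference. The cause of the other shifts was not tested. Without the filter on low levels 34.5% of genes passed 1.5-fold, against 14.4% with it. Trdc has no value in Cd8 cells, where it had 0 UMIs in both libraries. The settings on the Trbc1 cap, the 0.25 limit, Cd8 cells and Trav cells were chosen after seeing the data. No paired analysis was possible because each group is 1 library.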
